A study of Mus musculus with 12 samples.

Results

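10 genes of the Notch pathway were read in whole kidneys of mouse embryos that carry mutations in the Hox9, Hox10 and Hox11 genes. They are the receptors Notch1, Notch2, Notch3 and Notch4, the ligands Jag1, Jag2, Dll1 and Dll4, and the target genes Hes1 and Hey1. They were picked by gene symbol, 10 of the 36186 genes listed in the deposited table, with earlier results of these data known. The study removed the function of Hox9,10,11 genes of the HoxA, HoxC and HoxD clusters with frameshift mutations, and sequenced RNA of whole kidneys at E18.5, late in gestation. Each of the 4 groups has 3 libraries on a mixed genetic background. The groups are wild type (replicates 30, 37 and 55), Hoxa-/- Hoxc+/- (20, 31 and 33), Hoxa+/- Hoxc-/- (labelled AhCk_38, AhCk_110 and AhCk_115) and Hoxa-/- Hoxc-/- (24, 27 and 29), where Hoxa and Hoxc stand for genes 9, 10 and 11 of the cluster. The labels give no HoxD mutation in these kidneys.

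Counts summed over genes ran from 28616877 to 47067903 per library, with a median of 39328488 and the lowest in Hoxa-/- Hoxc+/- replicate 20. All 12 genes of a list that defines kidney tissue were found above 0 in every library. The targeted genes were still transcribed in the mutants, which frameshift alleles allow, so their mRNA does not check the genotype labels. Hoxa10 was at 125, 152 and 165 CPM (counts scaled to library size) in wild type and 100.3, 104 and 112 in Hoxa-/- Hoxc-/- (log2 fold change -0.49, edgeR adjusted p = 0.0270). Hoxc10 was at 50.2, 58.8 and 66.9 in wild type and 37.8, 29.1 and 35.8 in Hoxa-/- Hoxc-/- (-0.78, adjusted p = 0.0127 by edgeR). Hoxa11 was at 44.2, 52.7 and 59.7 against 37.1, 38.2 and 52.9 CPM, which did not pass (-0.29, adjusted p = 0.252 by edgeR). The sample labels give both copies of Hoxa11 as mutant in Hoxa-/- Hoxc-/-, while the paper describes its sequenced mutants as keeping 1 or 2 intact copies. The paper also reports that Hoxa-/- Hoxc-/- embryos had no kidneys it could detect at E18.5. Whether the labels or the paper's description holds was not tested, and the group names used here follow the labels.

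4 features of the libraries bear on the comparisons below. Hoxa-/- Hoxc+/- replicate 20 stands apart from all others: across 10724 well counted genes its deposited log2 values had a standard deviation of 0.605 around the gene medians, against 0.131 to 0.334 elsewhere. It also had the lowest Notch1 and Notch3 and the highest Hes1 and Hey1 of the 12 libraries. All 3 Hoxa+/- Hoxc-/- libraries came from a second sequencing run, so run and genotype cannot be told apart there. Xist, transcribed from the inactive X chromosome of females, differed between kidneys. It was at 189.6 and 253 CPM in Hoxa-/- Hoxc+/- replicates 31 and 33, 336 in Hoxa+/- Hoxc-/- replicate 110, and 72.6 and 60.1 in Hoxa-/- Hoxc-/- replicates 27 and 29. It was at most 0.138 in the other 7 libraries, every wild type kidney among them. Malat1 and Neat1, long RNAs kept in the nucleus and picked after their values were seen, fell in Hoxa-/- Hoxc-/- (-1.58 and -2.35, adjusted p = 0.00208 and 0.00469 by edgeR). Malat1 was at 106, 99.3 and 119 CPM in wild type and at most 44.2 in the mutant, and every Neat1 value of the mutant, 4.05, 6.06 and 3.79, also lay below wild type. Whether RNA quality differs between these groups was not tested.

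Notch receptors sit in the cell membrane and bind Jagged and Delta-like ligands on neighbouring cells. Binding lets proteases free the receptor's inner part, which enters the nucleus and, with the DNA-binding protein Rbpj, switches on Hes and Hey genes. In the embryonic kidney this signal acts where progenitors leave the cap mesenchyme and form nephron segments, proximal tubule among them, and also in vessels.

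In the 250 bases upstream of the transcription start (GRCm38.p6, both strands), none of the 8 members with a promoter entry held TGGGAA, the core of Rbpj sites. That word occurs in 21.6% of 32851 promoters. TTTAT, a word bound by Hox proteins of the 9 to 13 type and found in 37.3% of promoters, occurred in Jag1 only. Jag1 (chr2:137116521-137116770, minus strand) held it 2 times on the opposite strand of the gene, so that it reads ATAAA, in capitals below. Notch1 (chr2:26503823-26504072, minus strand), shown as the receptor that fell in Hoxa-/- Hoxc-/-, held neither word. No promoter entry was present for Hes1 or Hey1. A missing word says only that these letters are not in this window.

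Notch1: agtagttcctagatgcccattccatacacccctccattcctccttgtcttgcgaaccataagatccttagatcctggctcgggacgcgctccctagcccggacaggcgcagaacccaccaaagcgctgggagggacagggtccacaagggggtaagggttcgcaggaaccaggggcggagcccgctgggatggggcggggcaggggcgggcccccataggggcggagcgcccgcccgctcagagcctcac

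Jag1: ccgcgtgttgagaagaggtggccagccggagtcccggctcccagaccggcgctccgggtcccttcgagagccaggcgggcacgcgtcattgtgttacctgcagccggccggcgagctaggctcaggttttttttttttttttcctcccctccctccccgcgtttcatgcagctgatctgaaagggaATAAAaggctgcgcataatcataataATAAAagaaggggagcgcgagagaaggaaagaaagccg

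Among the receptors, Notch1, the broadly expressed one, was at 130.1, 137 and 141 CPM in wild type and between 114 (replicate 27) and 118 (replicate 29) in Hoxa-/- Hoxc-/-. All 3 mutant libraries lay below all 3 wild type libraries, and Notch1 fell by 0.23 on the log2 scale (95% interval -0.38 to -0.09, adjusted p = 0.0496 by edgeR's quasi-likelihood test). Notch2, the receptor that proximal tubule formation needs, was at 154, 150.3 and 161 against 135, 128 and 146. These groups did not overlap either, but Notch2 did not pass (-0.19, -0.37 to -0.02, adjusted p = 0.128 by edgeR). Notch4, the endothelial receptor, was at 37.9, 38.4 and 37.4 against 34.5, 35.4 and 33.4, again without overlap and without passing (-0.14, adjusted p = 0.21 by edgeR). Notch3, the receptor of vessel wall cells, was the only member on the other side of 0. Its wild type range of 101 to 126 overlapped 119.5, 136 and 126 in the mutant (0.15, -0.07 to 0.38, adjusted p = 0.309 by edgeR).

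**Figure D1:**
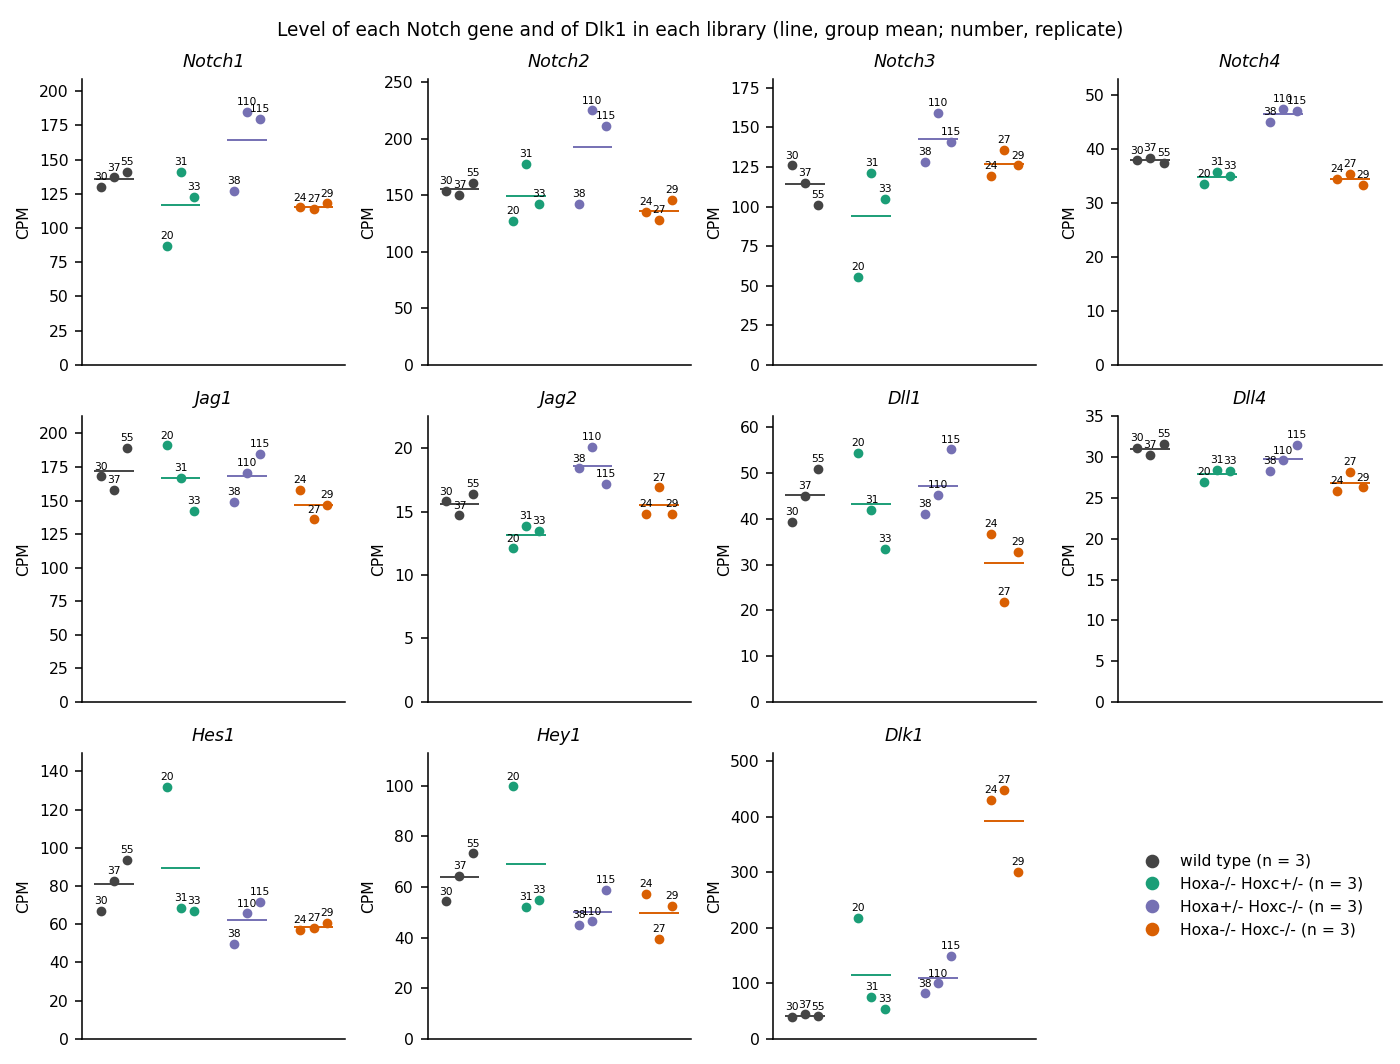
CPM of the 10 members and Dlk1 in each of the 12 libraries. Lines are group means and small numbers give the replicate.

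None of the 4 ligands passed. Dll1, a ligand made by cells at the start of nephron formation, had the largest fold change of the 10 members. It was at 39.4, 45 and 51 CPM in wild type and 36.8, 21.8 and 32.8 in Hoxa-/- Hoxc-/- (-0.57, 95% interval -1.01 to -0.13, adjusted p = 0.0843 by edgeR). The groups did not overlap, and replicate 27 was the low library of the mutants. Jag1, a ligand of nephron precursors and vessels, was at 168, 158 and 189 against 158, 136 and 147. Its highest mutant library lay just below its lowest wild type library (-0.22, -0.44 to -0.01, adjusted p = 0.141 by edgeR). Dll4, the ligand of endothelial cells, was at 31.1, 30.3 and 31.6 against 25.9, 28.2 and 26.3, also without overlap (-0.21, -0.39 to -0.03, adjusted p = 0.112 by edgeR). Jag2, the ligand with the fewest reads per base, was at 15.8, 14.7 and 16.4 against 14.8, 16.9 and 14.8, so the groups overlapped (-0.01, -0.26 to 0.23).

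The target Hes1, a repressor that Notch switches on, was at 66.9, 82.5 and 93.7 CPM in wild type and 57, 58.1 and 60.8 in Hoxa-/- Hoxc-/-. All 3 mutant libraries lay below wild type. The spread was narrow in the mutant and wide in wild type, with standard deviations of 1.99 and 13.5. Hes1 fell by 0.47 (95% interval -0.75 to -0.19, adjusted p = 0.041 by edgeR). Hey1, a related repressor of nephron precursors and vessels, was at 54.3, 64.3 and 73.3 against 57.3, 39.4 and 52.5. Mutant replicate 24 lay inside the wild type range, and Hey1 did not pass (-0.36, -0.73 to 0.00, adjusted p = 0.156 by edgeR).

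Of the 10 members, 2 fell in Hoxa-/- Hoxc-/- against wild type, Notch1 and Hes1, and none rose. Across the genome 2172 of 15839 genes, or 13.7%, passed the same test, 1172 lower (7.4%) and 1000 higher (6.31%), so 2 of 10 lies close to what the whole table gives. Negative log2 fold changes were seen in 9 of 10 members against 51% of all genes, with medians of -0.22 and -0.008. Every mutant library lay below every wild type library in 7 of 10 members, against 3292 genes, or 20.8%, across the table. At unadjusted p below 0.05 the members' count was 6 of 10, beside 5131 of the 15839 genes. The genome-wide count became 3390 without wild type 30, 530 without wild type 37, 636 without wild type 55, 794 without mutant 24 and 1102 without mutant 27. The members' count stayed 2 without wild type 30 and became 0 without wild type 37 or 55 or without mutant 24, 27 or 29. Under library-size-only scaling the all-gene split shifted to 742 higher and 1649 lower, and 9 members again had negative values, with a median of -0.28.

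**Figure D2:**
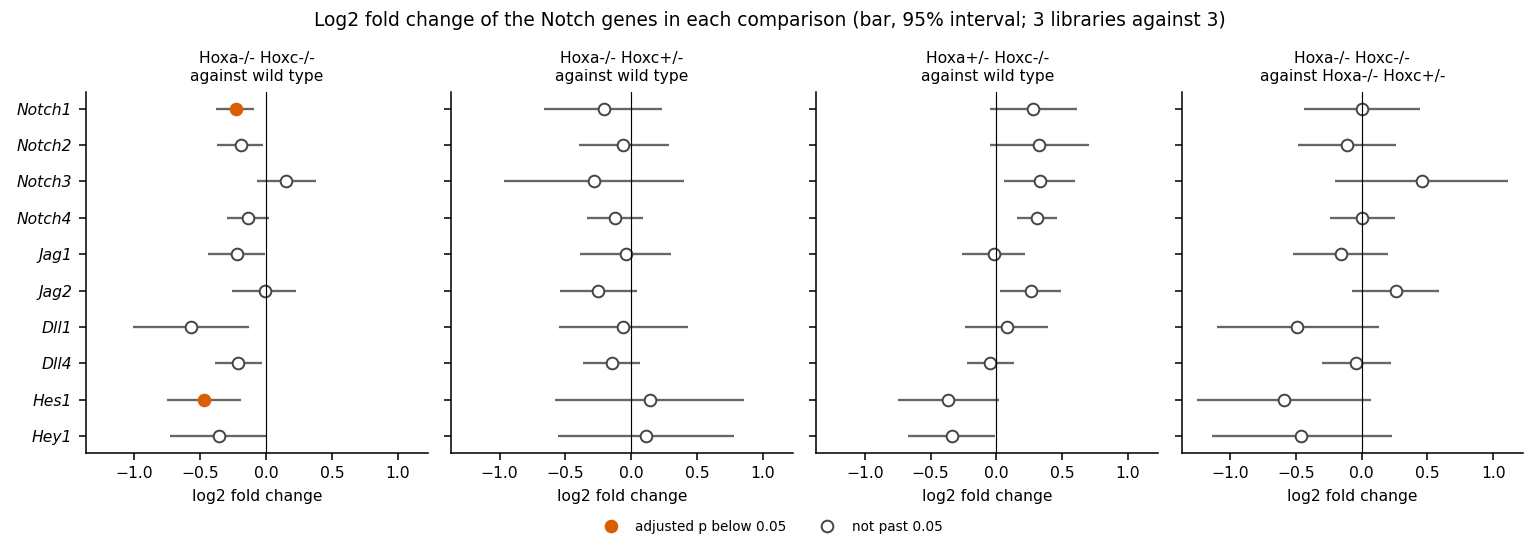
Log2 fold change with 95% interval of the 10 members in 4 comparisons. Filled points passed at adjusted p below 0.05.

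Both calls depend on which libraries are in the fit. Without wild type replicate 30 both hold, with adjusted p of 0.03 for Notch1 and 0.00835 for Hes1 by edgeR. Each of the other 5 omissions lifts both past 0.05: for Notch1 adjusted p by edgeR became 0.183 without wild type 37, 0.167 without wild type 55, 0.15 without mutant 24, 0.104 without mutant 27 and 0.0887 without mutant 29. For Hes1 the same omissions gave 0.141, 0.123, 0.122, 0.1 and 0.0692 by edgeR. The log2 fold changes themselves moved less, from -0.26 to -0.21 for Notch1 and from -0.59 to -0.35 for Hes1. Among 9 alternative settings Hes1 passed in 5 (adjusted p 0.00826 to 0.775) and Notch1 in 2 (0.0232 to 0.477). Dll1 passed in 1, DESeq2 (adjusted p 0.0272, range over the settings 0.0272 to 0.422). A fit of the 9 libraries of the first run, replicate 20 included, left no member past the threshold, and so did the same fit with Xist as covariate. The 9-library fit with Xist gave estimates of -0.42 for Notch1, -0.13 for Hes1 and 0.01 for Hey1. With 6 libraries and no Xist they were -0.23, -0.47 and -0.36, so libraries and covariate both differ between these values. Within Hoxa-/- Hoxc+/- only replicate 20, the library that stands apart, had Xist at or below 0.138 CPM. The Xist term of the 9-library fit is therefore partly bound to that library. No wild type kidney had Xist above 0.138 CPM, so sex and genotype are partly bound together in this comparison. The lower Malat1 and Neat1 of the same mutant libraries stand beside both calls.

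Beyond the members and Dlk1, 42 further Notch pathway genes were tested. Of these, 6 rose and 3 fell in Hoxa-/- Hoxc-/-, beside 6.31% and 7.4% of all genes. Values were negative in 21 and positive in 21, beside 51% negative among all genes, with a median of 0.00. Among 10 genes that process the receptor, 3 rose, beside 6.31% of all genes, and 1 had a negative value, beside 51% of all genes. Their median was 0.24, and the list was not tested as a group. Aph1a, a part of gamma-secretase, was at 153, 139 and 136 CPM in wild type and 182, 176 and 175 in the mutant (0.32, edgeR adjusted p = 0.0294). Furin, which cleaves the new receptor, was at 165, 149.6 and 152 against 181, 213 and 192 (0.33, edgeR adjusted p = 0.0443). For both genes no mutant library overlapped wild type. Ncstn, also of gamma-secretase, did not pass (0.01, edgeR adjusted p = 0.893), nor did the receptor-shedding proteases Adam10 (0.15) and Adam17 (0.21).

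Nuclear cofactors gave 2 that fell among 7 tested, beside 7.4% of all genes, and 6 negative values, beside 51%, with a median of -0.09. They were not tested as a group. Spen, a corepressor that binds Rbpj, was at 98.9, 78.5 and 77 CPM in wild type and 54.8, 68.3 and 63.3 in the mutant (-0.45, edgeR adjusted p = 0.0495). All 3 mutant libraries of Spen lay below wild type. Rbpj itself was at 113 in each wild type library and 131, 128 and 138 in the mutant, above wild type in all 3 but not past the threshold (0.22, edgeR adjusted p = 0.0545). Maml1, a coactivator, was near 0 (-0.05), and so was the cofactor Snw1 (-0.09). Among regulators that restrain or mark Notch for removal, Numbl (0.36, adjusted p = 0.0412 by edgeR) and Dtx4 (0.44, 0.0126) rose and Dtx3 fell (-0.59, 0.0198). Dtx3 was at 41.5, 53.4 and 55.6 against 34, 32.4 and 33.9, and Dtx4 at 37.3, 34.7 and 38.9 against 49, 51.9 and 49.5. Itch (-0.02), Numb (0.04) and Fbxw7 (-0.31) did not pass, and the median of the 9 was -0.01.

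Of 4 genes that ubiquitinate ligands, Neurl1a rose (0.39, edgeR adjusted p = 0.0394) while Mib1, needed for ligand uptake, did not pass (-0.25, edgeR adjusted p = 0.114); their median was 0.04. None of 5 glycosylation genes passed (median 0.04), with Pofut1 at 0.21 and Lfng at -0.15. The remaining targets took the direction of Hes1 and Hey1 without passing: Heyl -0.20, Hey2 -0.29, Nrarp -0.12 and Hes5 -0.30. All 6 tested targets were therefore negative, beside 51% of all genes, with 1 that fell, beside 7.4%, and a median of -0.29. Neither this list nor the others by role were tested as groups. The 4 receptors gave a median of -0.17 and the 4 tested ligands -0.22; the ligand Dll3 was at most 0.366 CPM and not tested. Among 4 other proteins that bind the receptors, Dlk1 rose and Egfl7, from endothelium, did not pass (-0.37, edgeR adjusted p = 0.0713).

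**Figure D3:**
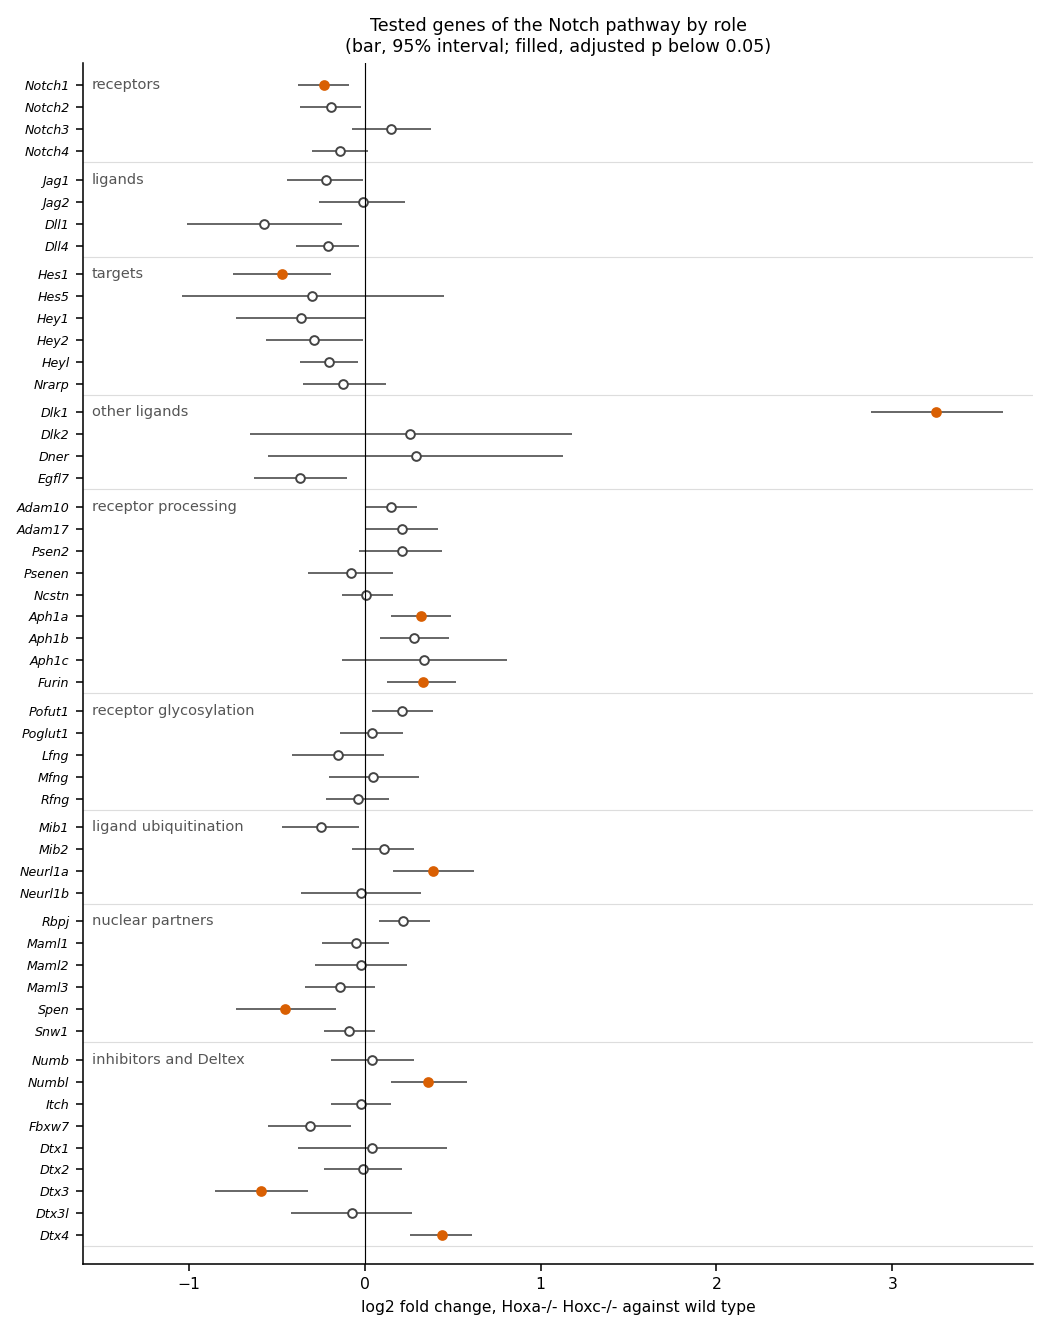
Log2 fold change in Hoxa-/- Hoxc-/- against wild type of tested Notch pathway genes, grouped by role. Filled points passed at adjusted p below 0.05.

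Dlk1, an atypical Notch ligand used here only as a reference, was at 39.1, 43.8 and 40.4 CPM in wild type and 431, 448 and 300.0 in Hoxa-/- Hoxc-/- (log2 fold change 3.25, edgeR adjusted p = 2.9e-04). It passed in 9 of 9 alternative settings. Read library by library, Dlk1 and the targets do not form 1 line. Hes1 was 57 to 60.8 in the mutant libraries where Dlk1 was 300.0 to 448, but 132 in Hoxa-/- Hoxc+/- replicate 20 with Dlk1 at 218. That replicate also had the highest Hey1, 99.8, and its Dll1, 54.5, was exceeded in 1 library only. The lowest Hes1 of all, 49.7, came from Hoxa+/- Hoxc-/- replicate 38 with Dlk1 at 81.8. Within Hoxa-/- Hoxc-/-, replicate 29 had the least Dlk1 and the most Hes1, Notch1 and Notch2, and replicate 27 had the most Dlk1 and the least Dll1, Jag1 and Hey1. Replicate 27 also had the most Notch3, Notch4, Jag2 and Dll4. Of these only Notch4 kept the order of Dlk1 throughout, with the least in replicate 29. Notch3 and Dll4 were lowest in replicate 24, and Jag2 was at 14.8 CPM in both replicates 24 and 29.

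Inside wild type Hes1, Hey1 and Dll1 each increased in the order of replicates 30, 37 and 55. The summed CPM of 10 proximal tubule genes ran the other way, 3668, 1769 and 1377, and the sum of 12 cap mesenchyme genes ran with them, 519, 606 and 692. In Hoxa-/- Hoxc-/- the proximal tubule sums were 3535, 4295 and 2787 and the cap sums 323, 233 and 425. Inside the mutant the order held only in part. Replicate 27, with the most tubule and least cap RNA, had the lowest Dll1 and Hey1, while its Hes1, 58.1, was close to the 57 of replicate 24. Replicate 29, with the least tubule and most cap RNA, had the highest Hes1, 60.8, but Dll1 and Hey1 of 32.8 and 52.5, below the 36.8 and 57.3 of replicate 24. In replicate 20 of Hoxa-/- Hoxc+/- the sums were 539 and 969, the lowest tubule and highest cap value, with the highest Hes1 and Hey1. Wild type replicate 30 had tubule RNA close to mutant replicate 24, and Hes1 was 66.9 and 57, Hey1 54.3 and 57.3, and Dll1 39.4 and 36.8. Whether composition carries any of the drop in Hes1 was not tested.

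**Figure D4:**
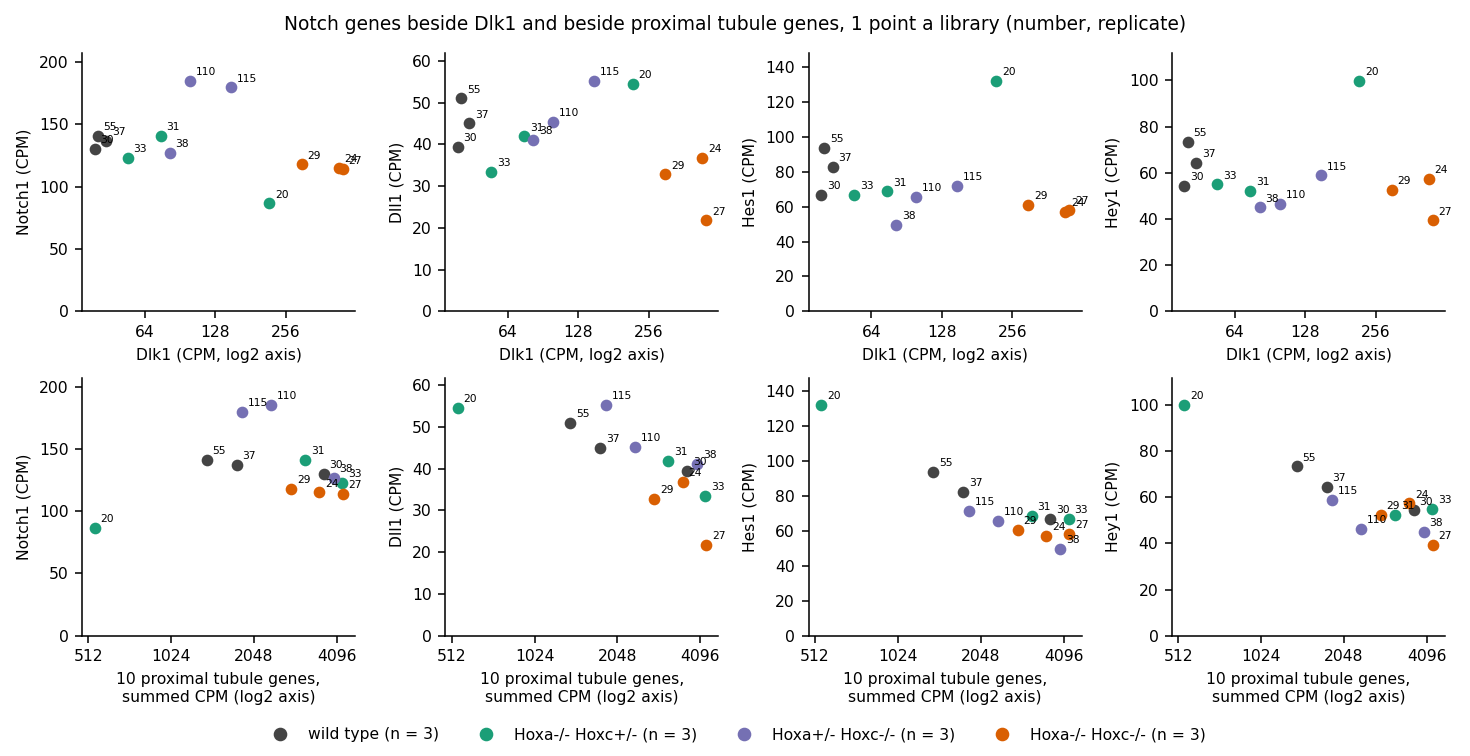
CPM of Notch1, Dll1, Hes1 and Hey1 in each library against Dlk1 CPM and against the summed CPM of 10 proximal tubule genes. The Dlk1 and tubule axes are on a log2 scale.

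Cell marker lists give the setting in Hoxa-/- Hoxc-/- against wild type. Across all genes 7.4% fell and 6.31% rose in this comparison, and the marker lists were not tested as groups. Of 12 cap mesenchyme genes 6 fell and none rose (median -0.91), led by Gdnf (-1.73) and Cited1 (-1.45), with Sall1 the most abundant (-0.68). Among 12 genes of early nephron structures, where Dll1, Jag1 and Hes1 are made, Osr2 (-0.69) and Lhx1 (-0.55) fell, and the median was -0.28. No proximal tubule gene passed although the median was 0.59, with Lrp2 at 0.55 (edgeR adjusted p = 0.261). Podocyte genes rose in 7 of 10 (median 0.47, Cdkn1c 0.60), and ureteric genes fell in 5 of 10 (-0.53, Ret -1.77). Of the 12 genes in the kidney-defining list, 1 rose and 1, Lhx1, fell (median 0.13).

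Of 12 endothelial genes, the setting of Notch4 and Dll4, 1 rose, Eng (0.46), and 10 had positive values with a median of 0.07. Their summed CPM was 1420.1 to 1521 in the mutant, above the 1269 to 1391 of wild type in every library, where Dll4 (-0.21) and Notch4 (-0.14) lay below. Cdh5, the most abundant, did not pass (0.22, edgeR adjusted p = 0.107). Mural cell genes, the setting of Notch3, gave 3 that rose among 10 (Acta2 0.56, Myh11 0.55 and Tagln 0.54), while Mcam fell (-0.27), with a median of 0.28. Stroma genes rose in 7 of 10 (median 1.18, Lum 3.04), beside 6.31% of all genes. Of lists for tissue outside the kidney, 3 of 8 liver genes rose (median 1.51). Alb was at 1.09, 0.669 and 0.866 CPM in wild type and 8.65, 15.9 and 3.02 in the mutant (3.40), and reached 21.4 in Hoxa-/- Hoxc+/- and 24.6 in Hoxa+/- Hoxc-/-. Among 8 skeletal muscle genes 1 rose (Myh3 2.41, near the floor), with a median of 1.45. No adrenal gene passed among 5 tested, while their median was 1.03. Summed over the 10 adrenal genes listed, CPM was 6.74 to 7.77 in wild type and 7.39, 7.92 and 17 in the mutant. Which cells these RNAs come from was not tested. In bulk RNA, fewer cells of a type and less RNA per cell cannot be told apart. The list of 9 Hox genes, 3 of them from the HoxD cluster that is not mutated here, gave 2 that fell, Hoxa10 and Hoxc10 (median -0.27), while Hoxd9 (0.10), Hoxd10 (-0.02) and Hoxd11 (-0.17) did not pass. From the sex list none of the 4 genes tested passed (median -1.80).

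In Hoxa+/- Hoxc-/- against wild type all 4 receptors had positive log2 fold changes, and none passed. Notch1 was at 127, 185 and 179.8 CPM in the order of the opening, Notch2 at 142, 225 and 211, Notch3 at 128, 159 and 141, and Notch4 from 45 to 47.5. Notch3, Notch4 and Jag2 (18.4, 20.1 and 17.2) lay above every wild type library, while Notch1 and Notch2 had replicate 38 below wild type. Log2 fold changes were 0.28, 0.32, 0.33 and 0.31 for Notch1 to Notch4, with adjusted p of 0.311, 0.304, 0.164 and 0.0593 by edgeR. Hes1 (49.7, 65.6 and 71.7) and Hey1 (45, 46.4 and 58.9) had negative values, -0.37 and -0.34, and both overlapped wild type in their highest library. Jag1 (-0.02), Dll1 (0.08) and Dll4 (-0.05) were near 0, and Jag2 was 0.26.

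None of the 10 members passed by edgeR in Hoxa+/- Hoxc-/-, where 376 of 15902 genes did, 2.36%. At unadjusted p below 0.05 the members' count was 4 of 10, Notch3, Notch4, Jag2 and Hey1, beside 3348 of the 15902 genes. DESeq2 gave 1 and limma 0, the 1 being Notch4 (adjusted p = 0.0062 by DESeq2, range over alternatives 0.0062 to 0.562). Members with every mutant library above wild type numbered 3 of 10, against 1812 genes or 11.4% of the table. Without replicate 38 Notch1 (0.42, edgeR adjusted p = 0.0446) and Notch2 (0.49, 0.0346) passed, so that 1 library decides their call; 339 of 16165 genes passed in that fit. The genome-wide count became 60 without wild type 37, 70 without wild type 55, 63 without AhCk_110 and 99 without AhCk_115. After a correction for GC content and transcript length the receptor estimates shrank to 0.01, 0.15, 0.13 and 0.09, and Jag2 to 0.08, while Hes1 (-0.25) and Hey1 (-0.31) moved less. Receptor transcripts are 6591 to 10500 bases long and 53.6 to 61.2% GC, and these libraries come from their own run. Whether length, GC content or run carries any of the receptor values was not tested.

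Of 43 further pathway genes in Hoxa+/- Hoxc-/-, none passed by edgeR; 12 had negative values, beside 47.5% of all genes, and the median was 0.08. That difference was not tested. Spen reached 0.62 (122, 148 and 118 CPM, edgeR adjusted p = 0.0619) and Aph1a 0.35 (0.0915). Targets had a median of -0.18 beside 0.32 for receptors. Dlk1 rose, with 81.8, 99.8 and 149 CPM (1.43, edgeR adjusted p = 0.0216), but passed in only 4 of 8 alternative settings (adjusted p 3.0e-10 to 0.22). Its call was lost without wild type 37 (edgeR adjusted p = 0.127), wild type 55 (0.108) or AhCk_110 (0.0847). Among markers Ret fell (-0.52), and Lum (1.08), Postn (0.69) and Col3a1 (0.52) rose.

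No member passed in Hoxa-/- Hoxc+/- against wild type, and no gene of 15790 did (0%); 360 genes but no member had unadjusted p below 0.05. DESeq2 and limma also gave 0 members. The group's own spread was wide enough that the values are given by library. Notch1 was at 86.7, 141 and 123 CPM in replicates 20, 31 and 33, Notch3 at 55.4, 121 and 105, Hes1 at 132, 68.7 and 66.8, and Hey1 at 99.8, 52.3 and 55. Replicates 31 and 33 lay close together in all 4 genes and replicate 20 far off. With all 3 libraries the log2 fold changes were -0.21, -0.28, 0.14 and 0.11. Without replicate 20 they were -0.04, -0.02, -0.26 and -0.26, so the sign of Hes1 and Hey1 is set by that library, and 8 genes passed across the genome.

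3 members lay below wild type in every Hoxa-/- Hoxc+/- library, against 753 genes or 4.77% of the table: Notch4 (33.5, 35.8 and 35 CPM; -0.12), Jag2 (12.1, 13.9 and 13.5; -0.25) and Dll4 (27, 28.4 and 28.3; -0.15). Notch2 (127, 178 and 142), Jag1 (191, 167 and 142) and Dll1 (54.5, 41.9 and 33.4) overlapped wild type, with -0.06, -0.04 and -0.06. Malat1 also lay below wild type in every library of this group, at 96.6, 47.7 and 83.8 CPM against at least 99.3. Its value of -0.51 did not pass, and Neat1 (-0.61) overlapped. The 43 further pathway genes gave 21 negative, 22 positive and a median of 0.00. Dlk1 did not pass here (218, 74.8 and 54.1; 1.49, edgeR adjusted p = 1), and without replicate 20 its value was 0.65.

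Hoxa-/- Hoxc-/- set against Hoxa-/- Hoxc+/- compares kidneys that, by their labels, differ in the remaining intact Hoxc copy. They may also differ at Hoxa11, given the conflict over that gene. None of 15764 genes passed by edgeR (0%), members included. At unadjusted p below 0.05 the counts were 1787 genes and 0 members, and DESeq2 and limma gave 0 members each. Hes1 lay below all 3 Hoxa-/- Hoxc+/- libraries in all 3 Hoxa-/- Hoxc-/- libraries (-0.59, 95% interval -1.25 to 0.07, edgeR adjusted p = 0.492), and Jag2 lay above (0.26, edgeR adjusted p = 0.53). Among all genes 13.1% lay below without overlap and 9.96% above. Dll1 (-0.49), Hey1 (-0.46) and Notch3 (0.46) overlapped, and Notch1 had an estimate of 0.00053 with a wide 95% interval (-0.44 to 0.44). Notch4 was at 0.0042. All 7 tested targets had negative values (median -0.36), beside 51.7% of all genes, but their summed CPM was 427 in replicate 20, 283 and 273 in replicates 31 and 33, and 279, 242 and 274 in Hoxa-/- Hoxc-/-. Without replicate 20 Hes1 shrank to -0.19 (edgeR adjusted p = 0.185) and Notch1 became -0.17, while 688 genes passed across the table and Dlk1 rose by 2.63 (edgeR adjusted p = 0.0107).

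Set on a per-length scale (CPM per 1000 bases of transcript), Hes1 was the most abundant member in wild type, at a mean of 55.2, followed by Jag1 at 30.6 and Hey1 at 26.4. Notch2, Notch1 and Notch3 were level at 14.8, 14.3 and 14.2 CPM per 1000 bases, with Dll1 at 12.6, Dll4 at 8.27, Notch4 at 5.75 and Jag2 at 3.07. In Hoxa-/- Hoxc-/- the per-length order of the first 3 was the same, Hes1 39.9, Jag1 26.2 and Hey1 20.5. Among receptors Notch3 came first per length, with 15.8 on average (14.9 to 16.9) above Notch2 at 13 (12.2 to 13.9) and Notch1 at 12.2 (12.1 to 12.4), without overlap between Notch3 and either. Its share of summed receptor RNA per length was 26 to 31.6% in wild type and 33.1 to 36.4% in Hoxa-/- Hoxc-/-, while that of Notch1 went from 27.5 to 30.6% to 25.9 to 26.8%. Summed per length, receptors were 48.4 to 49.9 in wild type and 45.1 to 47 in the mutant, and ligands 51.8 to 59.5 and 41.3 to 48.3. The ligand share of Dll1 had a mean of 23.1% and 18.8%, with overlap, and that of Jag1 56.1% and 58.4%. No test was run on shares or sums.

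**Figure D5:**
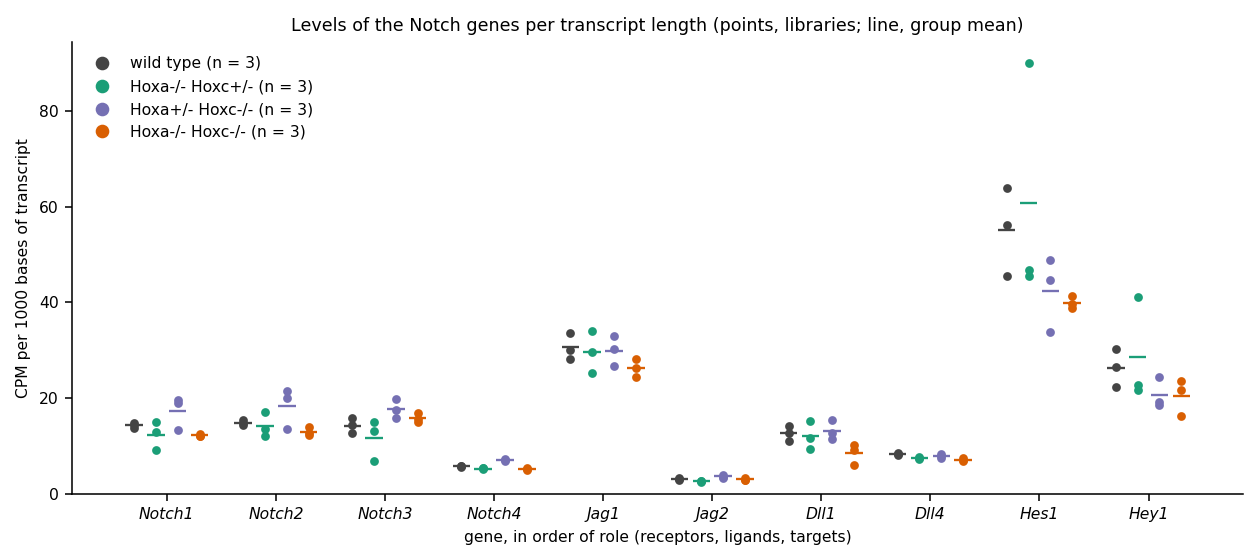
CPM per 1000 bases of transcript for the 10 members in each library. Lines are group means.

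Members also differed in how they moved with each other over the 9 libraries of the first run, described here by Pearson r of log2 CPM without a test. Hes1 and Hey1 moved together (r = 0.92, and 0.80 without replicate 20), as did Jag1 and Dll1 (0.91 and 0.88), Notch4 and Dll4 (0.91 and 0.91) and Dll1 and Hey1 (0.89 and 0.92). Notch1 and Notch2 gave 0.82 and 0.89. Notch3 ran against Hes1 (-0.90 and -0.72) and Hey1 (-0.90 and -0.81). The sign between Notch1 and Hes1 rests on replicate 20, with -0.40 when it is in and 0.84 when it is out. Group differences enter every one of these values.

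The genes most like each member among 12071 genes over the same libraries differed between members. For Hes1 they were Pcgf2 (r = 0.991), Gps2 and Zfp938, and for Hey1 Ube2s (0.993), Taf6 and Tmem138. Dll1 went with Mbtd1 (0.979), Tmem57 and Cdc45, of which Cdc45 acts in DNA replication, and Jag1 with Sec61a2 (0.955), Ranbp9 and, again, Tmem57. Notch1 went with Zfp346 (0.987), Hdac11 and Myo9b, Notch2 with Wdr33 (0.963), Dgcr8 and Chd4, and Notch3 with Plcg2 (0.985), Pxdn and Clstn1. Dll4 went with Gimap8 (0.979), Rabep2 and Map2k7, and Notch4 with Dgke (0.940), Mcam, a vessel marker, and Zbtb24. Jag2 went with Lrch4 (0.974) and Prss57, but over all 12 libraries its r with Lrch4 was -0.061, whereas Hey1 kept 0.965 with Ube2s. Each is the top of 12071 comparisons, so high r is partly selection.

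3 libraries per group limit what can be read here. In the edgeR fits of the 6 libraries of each comparison only Notch1 and Hes1 passed, in 1 comparison. Both were near the threshold, and both were lost when most single libraries were left out or all 12 libraries were fitted. The Hoxa-/- Hoxc+/- group holds a library that stands apart, the Hoxa+/- Hoxc-/- group its own run, and wild type holds no kidney with Xist. Whole kidneys were measured, and cell content was not separated from level per cell. The labels that the group names follow differ from the paper's description at Hoxa11, so the genotype there is uncertain. Receptor cleavage and protein were not measured, and whether Notch signalling itself differs was not tested.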

How the data were processed

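The authors deposited gene level expected counts and log2 normalised values. The expected counts were rounded to whole numbers (40.2% were not whole) and used for the tests, and the deposited log2 values were used for limma and for library spread. Every comparison used its own 6 libraries with filterByExpr (10 counts, 15 in total), TMM factors and edgeR's quasi-likelihood test. P values were adjusted by Benjamini-Hochberg over all tested genes, with 0.05 as threshold. CPM used TMM factors of all 12 libraries, and levels per length used the longest protein-coding GENCODE release 21 transcript. Alternatives were RLE factors, library size only, no low count filter, DESeq2, 12 libraries in the fit, 9 libraries of 1 run in the fit, Xist as covariate (added to the 9 library fit, or to the 12 library fit for Hoxa+/- Hoxc-/-), limma, a GC and length correction in 20 bins, and leaving out each library.

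Genes named are the 10 members, Dlk1, Notch pathway genes past the threshold with up to 4 abundant others per role, Hox9 to Hox11 genes of 3 clusters, Xist, up to 4 genes past the threshold with the most abundant gene of each marker list, and the 3 genes most like each member, some of which are counted but not reported here by name. Malat1 and Neat1 were added after their values were seen. Lists were receptors, ligands, targets, other ligands, processing, glycosylation, ligand ubiquitination, nuclear cofactors, inhibitors, kidney-defining, cap mesenchyme, early nephron, podocyte, proximal tubule, ureteric, endothelium, mural, stroma, liver, skeletal muscle, adrenal, Hox and sex. Members and lists were chosen with earlier results of these data known. Positions and promoters are from RefSeq GRCm38.p6. Versions: R 4.3.3, edgeR 4.0.16, limma 3.58.1, DESeq2 1.42.0, Python 3.11.15, pandas 2.3.3, matplotlib 3.10.9.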

Additional observations from a re-analysis of the deposited data

How the results depend on the processing

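Hoxa-/- Hoxc-/- against wild type. The count of all genes past the threshold, 2172, became 3371 with DESeq2, 1190 with all 12 libraries in the fit, 689 with 9 libraries of 1 run in the fit, 767 with Xist as covariate in that 9-library fit and 1215 with limma. It ran from 530 (without wild type 37) to 3390 (without wild type 30) over leave-outs. The members' count, 2, became 3 with DESeq2, 1 with RLE factors, no low count filter and the GC and length correction, and 0 with all 12 libraries in the fit, 9 libraries of 1 run in the fit, Xist as covariate and limma. It ran from 0 to 2 over leave-outs. Reversed values were Notch3 -0.19 and Hey1 0.01 with Xist as covariate, Jag2 0.00023 with DESeq2, and Jag2 -0.08 to 0.02 over leave-outs.

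Hoxa-/- Hoxc+/- against wild type. The all-gene count, 0, became 22 with DESeq2, 2 with all 12 libraries in the fit and 1 with limma, and ran from 0 to 8 (without replicate 20) over leave-outs. Reversed values were Jag1 0.13 and Dll1 0.28 with Xist as covariate and Jag1 0.01 with the GC and length correction. Over leave-outs reversals lay within Notch2 -0.21 to 0.04, Jag1 -0.16 to 0.06, Dll1 -0.26 to 0.10, Hes1 -0.26 to 0.31 and Hey1 -0.26 to 0.27.

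Hoxa+/- Hoxc-/- against wild type. The all-gene count, 376, became 1318 with DESeq2, 150 with all 12 libraries in the fit, 124 with Xist as covariate in that 12-library fit, 158 with limma and 122 with the GC and length correction. It ran from 60 (without wild type 37) to 558 (without wild type 30) over leave-outs. The members' count, 0, became 1 with DESeq2 and ran from 0 to 2 (without replicate 38). Jag1 reversed to 0.03 with Xist as covariate. Over leave-outs Jag1 ran from -0.09 to 0.05 and Dll1 from -0.05 to 0.17.

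Hoxa-/- Hoxc-/- against Hoxa-/- Hoxc+/-. The all-gene count, 0, became 1 with no low count filter, 554 with DESeq2, 540 with all 12 libraries in the fit, 181 with 9 libraries of 1 run in the fit, 783 with Xist as covariate in that 9-library fit, 1 with limma and 2 with the GC and length correction. It ran from 0 to 688 (without replicate 20) over leave-outs. Notch1 reversed to -0.0036 with RLE factors, -0.01 with library size only, -0.0037 with DESeq2, -0.02 with all 12 libraries in the fit, -0.02 with 9 libraries of 1 run in the fit and -0.03 with the GC and length correction. Notch4 reversed to -5.5e-06 with DESeq2, -0.01 with all 12 libraries in the fit, -0.01 with 9 libraries of 1 run in the fit, -0.01 with Xist as covariate, -0.0021 with limma and -0.05 with the GC and length correction. Over leave-outs Notch1 ran from -0.17 to 0.16, Notch2 from -0.21 to 0.03 and Notch4 from -0.02 to 0.02. The cause of these differences was not tested.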
